A study of Rattus norvegicus with 6 samples.

Results

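The genes described here are the rat genes that an Agilent array lists under the old name series Zfp followed by a number, short for zinc finger protein. A gene was kept where at least 1 of its probes stood well above background on 3 or more of the 6 heart arrays, and was then read by its brightest such probe. The array held 262 probes for 215 Zfp genes, and 217 probes for 183 genes were kept, out of 17515 genes tested in all. The name is a label rather than a tested structure. Of the 183 genes, 182 had a current symbol in RefSeq, and for 10 of these it lay outside the Zfp and Znf series, among them Patz1 (Zfp278 on the array), Zbtb14 (Zfp161), Zbtb18 (Zfp238) and the ubiquitin ligase Rnf115 (Zfp364).

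The study measured whole heart RNA with single-colour arrays in 3 animals given AACO, a Chinese medicine formula, and 3 control animals. The AACO animals received the solution at 0.386 µg/g and the control animals an equal amount of double-distilled water, daily for 8 weeks, and hearts were taken 24 h after the last dose. Both groups had undergone TAC, which usually stands for transverse aortic constriction, so the control hearts are operated, water-treated hearts and no healthy hearts were compared. The sample labels give rat, as do the probe positions on build rn4, while the series text speaks of mice. The text says that different donors were used, and the p-values below set the difference between the groups against the spread within groups.

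Most proteins of this family carry tandem fingers of the C2H2 type, in which pairs of cysteines and histidines hold a zinc ion and each finger reads a few bases of DNA. Many also carry a KRAB domain, which recruits the corepressor Trim28 and with it histone methylation and silencing, in large part at transposable elements. KRAB zinc finger genes lie in clusters that arose by duplication, are expressed at low levels in most adult tissues, and differ greatly between species, so that many have no known role in the heart. A smaller set with CCCH fingers, led by Zfp36, binds AU-rich elements in messenger RNA and speeds their decay.

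On the AACO arrays 70.9% to 72.4% of spots were well above background and the median signal was 212 to 261, against 66.0% to 68.7% and 143 to 204 on the control arrays, and no spot was saturated. All AACO arrays lay on 1 slide and all control arrays on another, and each slide was scanned on its own day. Slide, scan day and treatment therefore cannot be told apart. Cardiomyocyte markers had a summed level of 10.2 to 10.3 on the AACO arrays and 10.1 to 10.6 on the control arrays, in log2 units above each array's 75th percentile, and 0 of 6 changed. AACO replicates 1 and 2 stood apart in the atrial genes Myl7 and Sln. Myl7 was at 5.41, 6.85 and −0.44 on AACO arrays 1, 2 and 3, against −1.66, −2.26 and −0.85 on control arrays. Sln was at 1.97, 4.43 and 0.21 on the AACO arrays, against −1.05, 0.23 and 0.07 on the control arrays. The other atrial markers tested, Nppa and Myl4, did not show this split. Nppa was at 3.38, 6.07 and 6.48 in AACO and 5.61, 5.91 and 7.64 in control, and Myl4 differed by −0.06. The summed level of the 4 atrial markers was 7.83 to 8.52 in AACO and 7.83 to 8.48 in control, and 0 passed. In 3 further lists 0 genes passed in limma. The summed level was 4.92 to 5.03 in AACO and 5.17 to 5.28 in control for 5 endothelial markers (3 at an unadjusted p under 0.05), 4.71 to 5.42 and 5.39 to 5.82 for 5 fibroblast markers (2), and 2.89 to 3.48 and 2.34 to 2.84 for 4 smooth muscle markers (2). Of 6 lymphocyte markers 4 were not tested, all B cell markers among them, and the other 2 did not pass. Of 4 neuron markers only Tubb3 was tested, and it fell. Of the 7 macrophage markers 6 fell, with a summed level of 1.94 to 2.20 in AACO and 3.04 to 3.47 in control. In bulk tissue, fewer cells of a type and less RNA per cell cannot be told apart. Results that rest on AACO replicates 1 and 2 are given below with and without them, and the part of the other markers in the results was not tested.

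The array reads each gene through a probe of 60 bases, and the probes below are those that the results turn on, the largest rise, the largest fall and 2 probes that share long stretches with probes for other genes. The Zfp579 probe lay on rn4 chr1:67589194-67589253 (plus strand), the Zfp516 probe on chr18:79480602-79480661 (plus), the Zfp853 probe on chr12:11633930-11633989 (plus) and the Zfp141 probe on chr1:93026122-93026181 (plus). Capitals mark the longest run of bases shared with the probe for another gene, which is given on the line after.

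Zfp579: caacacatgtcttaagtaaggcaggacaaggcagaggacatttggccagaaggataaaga
Zfp516: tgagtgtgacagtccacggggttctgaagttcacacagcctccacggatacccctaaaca
Zfp853: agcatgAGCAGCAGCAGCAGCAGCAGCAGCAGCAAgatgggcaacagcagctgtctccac
probe with no gene name, chromosome 2: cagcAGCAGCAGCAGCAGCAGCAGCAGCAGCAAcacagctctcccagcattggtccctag
Zfp141: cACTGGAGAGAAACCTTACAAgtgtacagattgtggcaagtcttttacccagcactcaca
RGD1565622: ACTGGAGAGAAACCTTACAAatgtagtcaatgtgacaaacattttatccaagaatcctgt

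Of the 183 Zfp genes, 22 rose with AACO, 3 fell and 158 did not pass an adjusted p of 0.05 in limma. Over all 17515 genes 4.97% rose and 5.94% fell, so that 10.9% changed, whereas 12.02% of the Zfp genes rose and 1.64% fell. Among the 11615 other genes with a name, 368 (3.17%) rose and 711 (6.12%) fell. Among the 5717 genes without a name, 481 (8.41%) rose and 326 (5.70%) fell, so that these too rose more often than they fell. Of the Zfp genes 13.7% changed, and 22 of their 25 calls were rises. The rises were small, between 0.37 and 1.63 on the log2 scale with a median of 0.86, and 4 rises and 2 falls reached 2-fold. All 22 risen and all 3 fallen genes were well above background on all 6 arrays.

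The shift was seen beyond the genes that passed. The median log2 fold change, AACO minus control, was 0.15 over the Zfp genes (interquartile range −0.03 to 0.40), against −0.05 over other named genes, 0.06 over genes without a name and −0.02 over all genes. The value was above 0 for 128 of the 183 Zfp genes (69.9%), against 56.0% of genes without a name and 47.4% of all genes. The AACO and control arrays did not overlap for 58 Zfp genes that were higher with AACO and 14 that were lower. Over all genes 17.3% were higher and 20.1% lower without overlap, 37.4% together, close to the 39.3% of the Zfp genes. At an unadjusted p under 0.05 there were 53 Zfp genes higher and 9 lower, beside 14.3% and 16.1% of all genes, or 30.4% together. These counts and medians describe genes chosen by name with earlier results in view, and no test was made on the list.

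**Figure D1:**
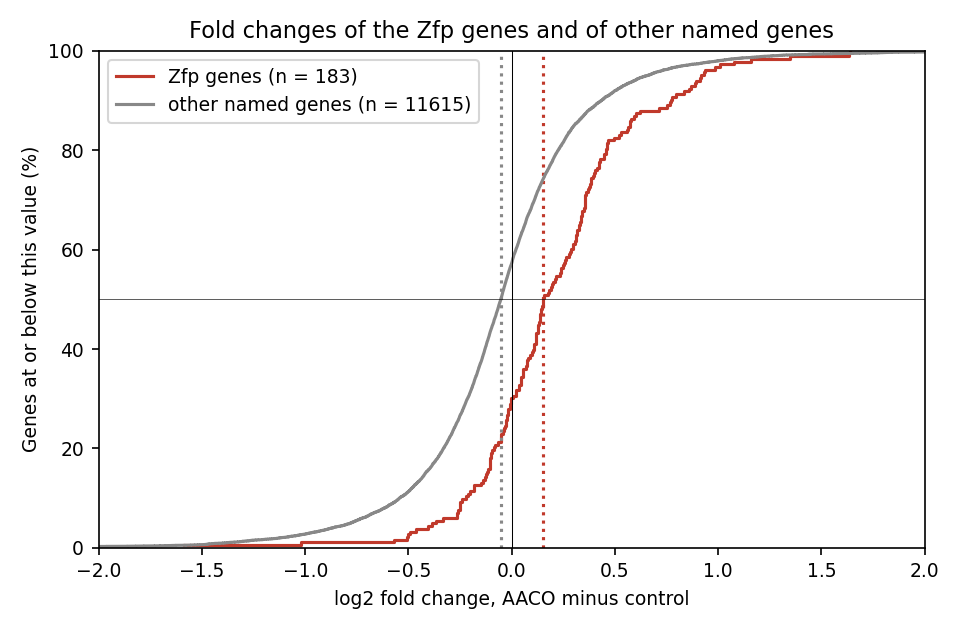
Cumulative share (%) of genes at or below each log2 fold change, AACO minus control, for the 183 Zfp genes (red) and the 11615 other named genes (grey), with dotted lines at the medians of 0.15 and −0.05. The red curve lies to the right of the grey curve over the middle of the range, and 69.9% of the Zfp genes lie above 0.

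The filter on dim probes can itself favour genes that are higher in 1 group. Of the 215 Zfp genes on the array, 17 were well above background on 0 arrays, 5 on 1, 10 on 2, 6 on 3, 10 on 4, 6 on 5 and 161 on 6. All 10 genes just outside the filter, at 2 arrays, were seen on AACO arrays alone, among them the imprinting regulator Zfp57, which averaged −5.58 in AACO and −6.41 in control. Of the 6 genes just inside, at 3 arrays, Zfp141, Zfp26, Zfp354c, Zfp763 and Zfp800 were seen on AACO arrays alone, and Zfp569 on 2 AACO arrays and 1 control array. For these 5 genes the control level is only a bound, taken on each control array as the lowest signal among probes well above background or the probe's own signal, whichever was higher. On that footing Zfp26, Zfp354c and Zfp763 were at least 1.55, 1.68 and 2.15-fold higher in AACO as processed here. The error of the AACO mean is left out of these limits. They do not hold across ways of processing, since with normexp Zfp26 gave −0.16. For Zfp141 and Zfp800 the probe's own signal was the higher, so the measured folds of 2.23 and 1.24 carry their full error and are no bound. None of the 5 passed, with adjusted p between 0.0507 for Zfp763 and 0.238 for Zfp800, although Zfp763 passed in 7 of 19 alternatives and Zfp26 in 2. With no filter, 22 of 215 Zfp genes rose and 4 fell with a median of 0.15, where 3.39% of all 26270 genes rose and 11.3% fell. With only genes well above background on every array, 26 of 161 Zfp genes rose and 3 fell with a median of 0.14, where 6.09% of all 15502 genes rose and 7.87% fell.

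Zfp579, a C2H2 finger gene with no settled role, rose most. Its scaled log2 level was −0.71, −0.54 and −0.998 on the AACO arrays, against −2.19, −2.52 and −2.44 on the control arrays. The lowest AACO array stood more than 1 log2 unit above the highest control array, and the difference was 1.63 ± 0.15 (SE, limma adjusted p = 0.00651), a 3.10-fold rise. Zfp606 was at −2.76, −3.40 and −3.47 in AACO and −4.45, −4.67 and −4.57 in control, higher by 1.35 ± 0.20 (adjusted p = 0.0152). With normexp background correction in place of the scanner's, Zfp579 gave 1.27 (adjusted p = 0.00280), whereas Zfp606 gave 0.37 and no longer passed (adjusted p = 0.121). Both probes lay below the 75th percentile of their arrays.

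Patz1, listed as Zfp278, encodes a BTB and AT-hook zinc finger regulator known from lymphocyte development. It was at 1.69, 1.71 and 1.41 in AACO hearts and 0.62, 0.41 and 0.55 in control hearts, a rise of 1.08 ± 0.12 (adjusted p = 0.00898). Its 2 other probes, far dimmer, gave 1.04 each, so 3 probes of different brightness gave nearly the same change. Zfp467, which in mouse marrow stromal cells favours the fat cell over the bone cell fate, was at 0.80, 0.50 and 0.17 in AACO and −0.52, −0.74 and −0.30 in control. It rose by 1.01 ± 0.19 (adjusted p = 0.0281), and the groups did not overlap.

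Zfp46 was read on 10 spots per array. It was at 3.17, 3.12 and 2.57 in AACO and 1.94, 1.84 and 2.27 in control, a rise of 0.94 ± 0.20 (adjusted p = 0.0363). A second, dim probe gave 0.47, and the mean over probes, 0.71, did not pass (adjusted p = 0.102). AACO replicate 3 was nearest to the controls for this gene, as it was for most of the risen genes. Zfp512b rose by 0.89 (adjusted p = 0.0265) and its dimmer probe gave 1.64. Zfp157 (0.99, adjusted p = 0.0258), Zfp13 (0.92, 0.0204), Zfp472 (0.91, 0.0161) and Zfp51, now named Zfp54 (0.89, 0.0116) complete the 10 largest rises, all at levels below −2.5 on every array. With normexp none of these 4 passed, at 0.30 for Zfp157, 0.20 for Zfp13, 0.31 for Zfp472 and 0.33 for Zfp51 (adjusted p from 0.107 to 0.314).

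Zfp853 had the brightest probe of the 183 genes. It was at 4.51, 4.53 and 4.51 in AACO and 3.49, 3.79 and 3.66 in control, a rise of 0.87 ± 0.11 (adjusted p = 0.0102) with almost no spread among the AACO arrays. Its probe, printed above, holds a run of AGC repeats and shares 29 bases in a row with a probe for another locus. On the whole array 5 kept probes held at least 24 bases of this repeat. The 4 others, of which 1 is assigned to Tp63 and the rest have no gene name, were all higher in AACO, by 0.64 to 0.74. Its value therefore stands beside those of repeat-bearing probes of other loci, and how much of its signal came from Zfp853 was not tested.

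The other 11 rises ranged from 0.37 to 0.86 and came from Zfp709l1, Zfp629, Zfp3, Zfp235, Zfp641, Zfp703, Zfp426, Zfp354a, Zfp518a, Zfp84 and Zfp689. Zfp703, a repressor of the NET family that is amplified in luminal breast cancers, was at −1.06, −0.98 and −1.18 in AACO and −1.72, −1.58 and −1.73 in control, a rise of 0.60 ± 0.10 (adjusted p = 0.0206). Zfp503, the other NET gene, known from striatal development, was at −1.56, −1.54 and −1.78 in AACO and −2.23, −2.13 and −1.90 in control. The groups did not overlap, but its difference of 0.46 did not pass (adjusted p = 0.0693). Zfp354a, or Kid-1, a KRAB repressor first described in rat kidney, stood at −2.74, −2.79 and −3.06 in AACO and −3.27, −3.39 and −3.42 in control, and its 0.50 ± 0.12 passed narrowly (adjusted p = 0.0499). It passed in 10 of 20 alternatives, and normexp gave 0.05 (adjusted p = 0.790). With normexp 10 of the 22 rises were lost, those of Zfp606, Zfp157, Zfp13, Zfp472, Zfp51, Zfp709l1, Zfp235, Zfp641, Zfp354a and Zfp518a, at 0.05 to 0.37.

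**Figure D2:**
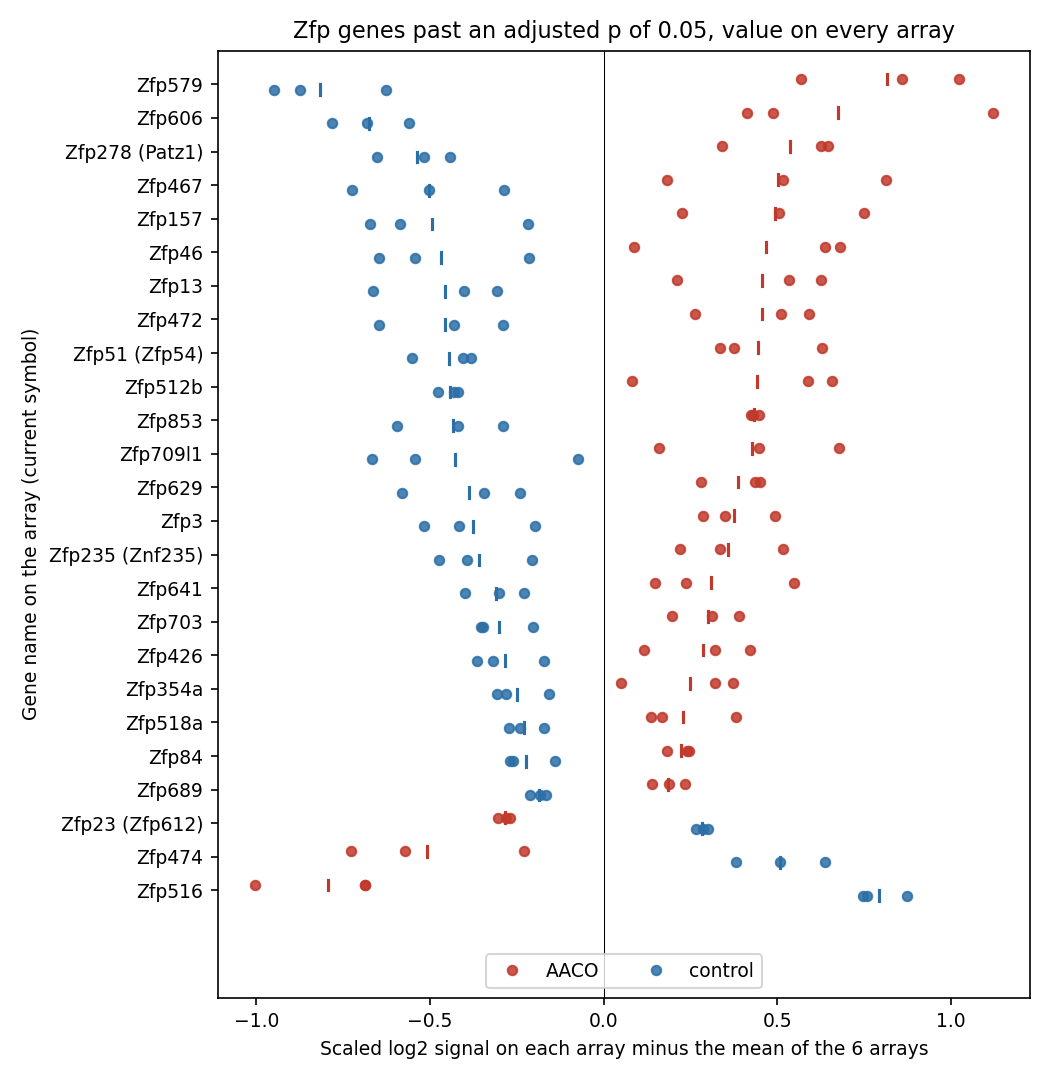
Scaled log2 signal on each of the 6 arrays minus the gene's mean over them, for the 22 Zfp genes that rose and the 3 that fell; red points are AACO arrays, drawn above the blue control arrays, and short bars are group means. The groups do not overlap in any of the 25 genes, which were picked by the test on these same arrays, so this is no further support. Over all genes 37.4% did not overlap. AACO replicate 3 is the lowest AACO array in 20 of the 22 risen genes.

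Of the 3 genes that fell, Zfp516 changed most. In mouse this factor promotes the brown fat programme and activates Ucp1. It was at −3.22, −2.90 and −2.90 in AACO hearts, against −1.34, −1.45 and −1.46 in control hearts. The arrays of each group lay close together and the fall was −1.59 ± 0.12 (adjusted p = 0.00486), the smallest adjusted p among the Zfp genes. Zfp474, described in mouse as a testis gene, was at −5.31, −4.81 and −5.15 in AACO and −3.94, −4.07 and −4.20 in control, lower by −1.02 ± 0.15 (adjusted p = 0.0157). Both genes lie on rn4 chromosome 18, where 0 of 8 Zfp genes rose, as did 0 of 7 on chromosome 2 and 0 of 7 on chromosome 6.

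Zfp23, now named Zfp612, was read on 10 spots and was the tightest of the 25. It was at 0.15, 0.19 and 0.17 in AACO and 0.74, 0.72 and 0.75 in control, a difference of −0.57 ± 0.08 (adjusted p = 0.0148). A second, dimmer probe of the same transcript gave 0.14, the opposite sign, and the mean over probes, −0.22, did not pass (adjusted p = 0.254). With spike-in scaling Zfp23 gave −0.40 and did not pass (adjusted p = 0.185). The same holds for Zfp641, whose brighter probe rose by 0.62 (adjusted p = 0.0366) while the dimmer gave −0.58. Among 32 Zfp genes with more than 1 kept probe, 13 had probes of opposite sign, and Zfp23 and Zfp641 were the 2 of the 7 called genes among them for which this was so.

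Single spots of the 12 Zfp genes printed 10 times had a median SD of 0.082 on the log2 scale. Between arrays of a group the same genes had a median SD of 0.114 in AACO and 0.104 in control. The values used for these genes are means over 10 spots.

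Of the 26 Zfp genes listed for a described role, 24 were tested, and 2 of them, Zfp703 and Zfp354a, rose, while 0 fell and their median was 0.05. The messenger RNA decay factors of the CCCH type did not pass as processed here. Zfp36, or tristetraprolin, stood at −4.03, −2.89 and −3.85 in AACO and −3.93, −3.14 and −3.83 in control, 0.04 ± 0.35 apart (adjusted p = 0.948). Replicate 2 was the highest array of each group, and the groups overlapped. Zfp36l1 was at −2.52, −2.81 and −2.78 in AACO and −1.98, −2.44 and −2.21 in control, −0.49 ± 0.15 apart without overlap (adjusted p = 0.0872). With normexp it passed as lower (−0.60, adjusted p = 0.0162). Zfp36l2, the last of the 3, differed by 0.18 ± 0.13 (adjusted p = 0.382).

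Around them, 15 of 18 listed targets of Zfp36 were tested, of which 1 rose and 3 fell, with a median of −0.42. The cell growth regulator Myc fell by 1.87 on the log2 scale (adjusted p = 0.0108) and the monocyte attractant Ccl2 fell by 1.47 (adjusted p = 0.0140). The other 2 calls, named after their values were seen, were the neutrophil attractant Cxcl2 (measured at −2.47, adjusted p = 0.0179, well above background on 1 of 3 AACO arrays and 3 of 3 control arrays) and the cytokine Tnf (0.59, adjusted p = 0.0430). Of 20 genes listed for the decay of AU-rich messenger RNA, 16 were tested, and 0 rose and 0 fell in limma. They were deadenylation, exonuclease and exosome factors, AU-rich binding proteins such as Elavl1, and the kinase Mapkapk2, with no decapping factor. Among these 16, 2 had an unadjusted p under 0.05, and the 2 of smallest p were Exosc2 (0.31, adjusted p = 0.0929) and Cnot3 (0.27, adjusted p = 0.133). Among 16 immediate early genes, to which Zfp36 belongs by its induction, 1 fell, the nuclear receptor Nr4a3 (−3.97, adjusted p = 0.0427), and Egr3 did not pass (−0.49, adjusted p = 0.0622). Nr4a3 was at −4.33, −3.75 and −0.90 in AACO and 1.75, 0.93 and 0.25 in control, so AACO replicate 3 again lay nearest to the controls.

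Zfp260 is the member with a described place in cardiac muscle, since in rat cardiomyocytes it acts with Gata4 downstream of alpha-1 adrenergic receptors. It was at −1.13, −0.84 and −1.11 in AACO and −0.74, −0.89 and −0.81 in control. The groups overlapped and the difference of −0.21 ± 0.12 did not pass (adjusted p = 0.267). Of 11 genes listed with it, 2 rose and 0 fell, with a median of 0.09. These were the receptor gene Adra1b (0.78 ± 0.15, adjusted p = 0.0312) and the muscle factor Mef2c (0.48 ± 0.10, adjusted p = 0.0345).

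Several other Zfp genes of known role were measured well and did not pass. The fat cell regulator Zfp423 gave −0.12 ± 0.12 (adjusted p = 0.562), and its relative Zfp521 gave −0.08 ± 0.15, although a second, dim Zfp521 probe gave 1.02. Zfp638, a splicing and silencing factor, was lower without overlap but missed the threshold (−0.38 ± 0.11, adjusted p = 0.0652, or 0.0454 with a variance trend). Zfp598, the ubiquitin ligase that senses collided ribosomes, was at 2.06, 1.99 and 2.11 in AACO and 2.32, 2.28 and 2.31 in control, −0.25 ± 0.09 apart (adjusted p = 0.116). Zfp451, a SUMO ligase, was higher without overlap by 0.40 ± 0.14 (adjusted p = 0.106).

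The remaining listed genes gave small or imprecise differences. The spindle factor Zfp207 gave −0.27 (adjusted p = 0.187) and the imprinting regulator Zfp445 gave 0.13 (adjusted p = 0.676). Differences were at most 0.15 in size for Zfp148, Zfp281, Zfp335, Zfp384, the ubiquitin ligase Zfp91 and the promoter factor Zfp143. Zfp90, Zbtb14 and Zbtb18 gave 0.47, 0.45 and 0.35 with standard errors of 0.25 to 0.30 and adjusted p from 0.25 to 0.461. All 3 were below −4 on every array. Zfp410 controls Chd4, the remodelling enzyme of the NuRD complex, in mouse and human cells. Zfp410 gave 0.05 ± 0.10 (adjusted p = 0.737), while Chd4 rose by 0.44 ± 0.11 (adjusted p = 0.0485).

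Chd4 is 1 of 19 genes listed for the corepressor machinery that KRAB proteins recruit. Of the 17 tested, 1 rose, 1 fell and the median was 0.10. The other call was Gatad2b, a NuRD subunit, at −1.78, −1.91 and −1.68 in AACO and −1.28, −1.32 and −1.14 in control (−0.54 ± 0.11, adjusted p = 0.0313). Among 10 tested genes of DNA and histone methylation, 1 rose, 1 fell and the median was 0.10. The methyl-DNA reader Mbd2 fell by 0.47 on the log2 scale (adjusted p = 0.0469). The demethylating enzyme Tet1 was well above background on all AACO arrays and on 0 control arrays, so it was kept through the AACO arrays alone. With the control level as a bound, it was at least 3.69-fold higher in AACO as processed here. Its call (limma adjusted p = 0.00486) rests on control values of −6.75, −6.80 and −6.87, none well above background. The p-value therefore does not test the bound.

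Other zinc finger name series held fewer genes, so that few calls could be met in them. Over all genes 4.97% rose, 5.94% fell and 30.4% had an unadjusted p under 0.05. Of 29 Zbtb genes 1 rose and 2 fell (16 above 0, 10 at an unadjusted p under 0.05, median 0.03). Of 8 Zscan and Zkscan genes 0 rose and 0 fell in limma (5 above 0, 1 at an unadjusted p under 0.05, median 0.08). Of 21 Klf and Sp genes 1 rose and 1 fell (7 above 0, 5 at an unadjusted p under 0.05, median −0.09). Of 25 Zcchc and Zc3h genes 0 rose and 1 fell (12 above 0, 5 at an unadjusted p under 0.05, median −0.00). Named after their values were seen, these calls were Zbtb5 (0.59) higher and Zbtb16 (−1.32) and Zbtb8b (−0.99) lower, Sp4 (1.28) higher and Klf3 (−0.61) lower, and Zc3h18 (−0.55) lower. Zfpm2, the Gata4 cofactor known as Fog2, is no numbered Zfp gene and rose by 0.64 (adjusted p = 0.0312). The difference between these series and the Zfp genes was not tested.

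The Zfp genes were dim, with a median scaled level of −2.08, against −0.79 for other named genes, so the comparison was repeated within 4 bins of equal gene number, ordered by signal. In the dimmest bin 43 of 55 Zfp genes were higher in AACO with a median of 0.31, against −0.05 for other named genes of that bin. These 55 include the 5 genes kept through AACO arrays alone, all 5 higher, a direction that the filter favours. The same filter applied to the other named genes, and the bin without such genes was not counted. In the next bin 44 of 60 were higher, with medians of 0.25 and −0.04. In the third bin it was 35 of 56, with medians of 0.07 and −0.05. In the brightest bin 6 of 12 were higher, with medians of 0.02 and −0.06. Rises numbered 7, 5, 7 and 3 from the dimmest to the brightest bin. These were 12.7%, 8.33%, 12.5% and 25% of the Zfp genes, against 4.41%, 3.54%, 2.65% and 2.19% of other named genes. The Zfp median was smaller at each step, while the share of rises was not, and the brightest bin held only 12 Zfp genes.

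The dim bins depended on how background was removed. With normexp correction in place of the scanner's processed signal, 10 of the 55 dimmest Zfp genes were higher in AACO and their median was −0.17, against −0.34 for other named genes of that bin. In the next 3 bins 36 of 60, 39 of 56 and 8 of 12 were higher, with medians of 0.06, 0.08 and 0.20 against −0.13, −0.03 and −0.02 for other named genes. The sign in the dimmest bin thus turned with the correction, while the Zfp median was above that of other named genes in each bin under both. Over all 183 genes normexp gave 12 rises, 7 falls and a median of 0.02, against 318 rises, 1347 falls and a median of −0.12 for the other named genes.

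**Figure D3:**
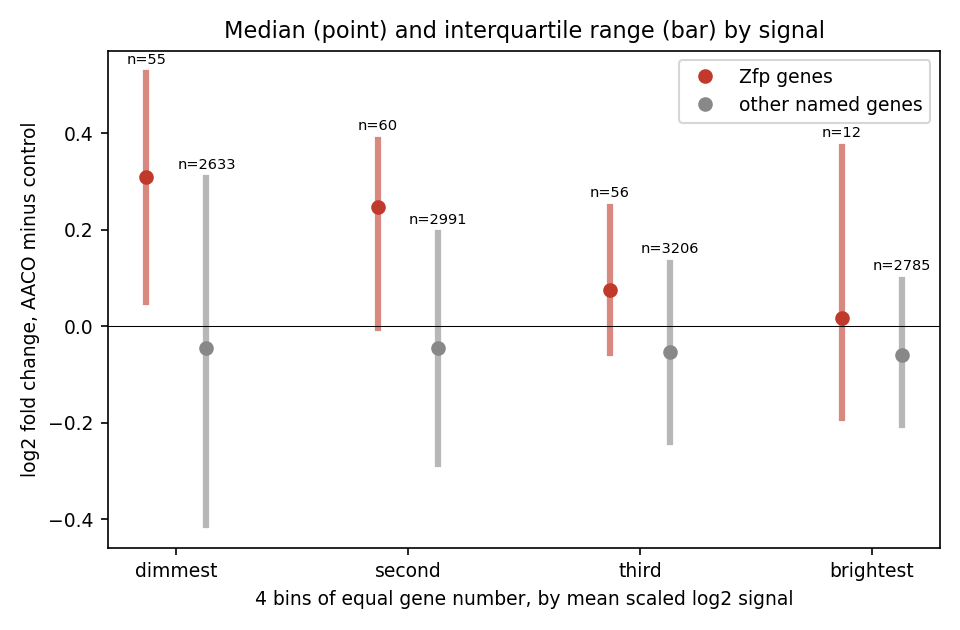
Median (point) and interquartile range (bar) of the log2 fold change, AACO minus control, of Zfp genes (red) and other named genes (grey) in 4 bins of all genes ordered by mean scaled log2 signal, with the number of genes above each bar. The red points run from 0.31 in the dimmest bin to 0.02 in the brightest, above the grey points in each.

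The position of the zero line also rested on the scaling between arrays. Among all genes called, 45.6% were rises as processed here. That share was 56.0% with the 75th percentile taken over spots, 76.3% with spike-in scaling, 95.9% with no scaling, 27.7% with normexp and 23.1% with no filter on dim probes. The median of all genes moved by 0.17 with spike-in scaling, by 0.55 with no scaling and by −0.12 with no filter, so only the difference between Zfp genes and other named genes can be read across settings. The Zfp median was above that of other named genes in all 20 alternatives run, by 0.12 to 0.30, against 0.21 as processed here. Not all of these could have differed. A shift of whole arrays moves both medians alike, and a variance trend moves neither. The difference was therefore fixed at 0.21 with no scaling, spike-in scaling, scaling to the median of detected probes, the percentile over spots and the variance trend.

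**Figure D4:**
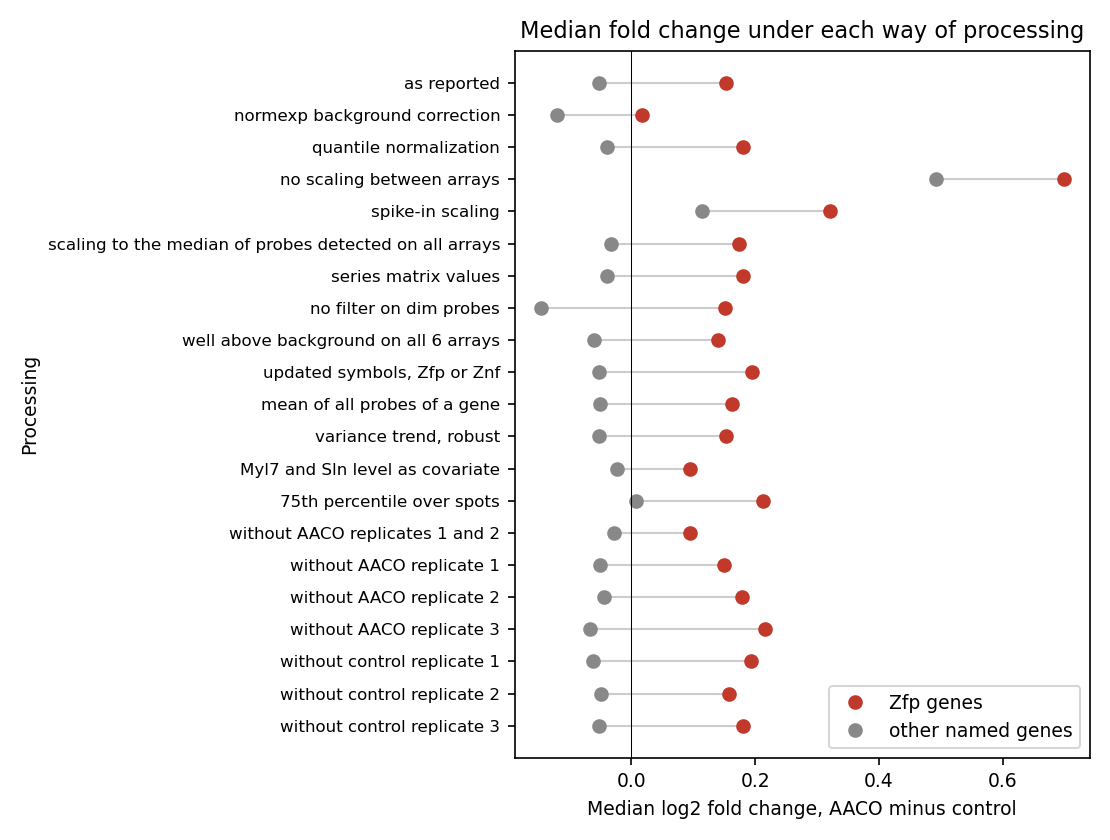
Median log2 fold change, AACO minus control, of the Zfp genes (red) and of other named genes (grey), as reported in the top line and under 20 other ways of processing the same arrays. The red point lies to the right of the grey point in every line, while both move by scaling, to 0.70 and 0.49 with no scaling. The distance between the points cannot change where whole arrays are only shifted or where only the variance trend differs.

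Taken as each gene's deviation from its own mean, the shift was not equal across the AACO hearts. The median deviation of the Zfp genes from each gene's mean over the 6 arrays was 0.13, 0.11 and 0.01 on the AACO arrays, against −0.06, −0.11 and −0.07 on the control arrays. For the 22 risen genes it was 0.51, 0.44 and 0.22 in AACO and −0.40, −0.41 and −0.33 in control. AACO replicate 3 was the lowest AACO array for 55.7% of Zfp genes and for 32.9% of other named genes. The 2 arrays with the larger shift are those with the high Myl7 and Sln.

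Without AACO replicates 1 and 2, 1 AACO array stood against 3 control arrays, with the spread taken from the control arrays alone and the lone AACO array assumed to vary like them. In that design limma made 0 calls over all 17516 genes, so the absence of Zfp calls says nothing about single Zfp genes. At an unadjusted p under 0.05 there were 18 Zfp genes higher and 5 lower, and 12.7% of all genes in either direction. The Zfp median was then 0.09, against −0.03 for other named genes, with 119 of 183 above 0. With a covariate made from Myl7 and Sln limma again made 0 calls over all genes, with 18 Zfp genes higher and 5 lower at an unadjusted p under 0.05 (12.97% of all genes), and the medians were 0.10 and −0.02. Without AACO replicate 1 alone 5 Zfp genes rose and 1 fell, where 0.948% of all genes rose and 1.62% fell. Without AACO replicate 2 alone 3 rose and 2 fell, where 0.599% of all genes rose and 1.096% fell, so calls were fewer for all genes in both fits. Without control replicate 1, 2 or 3 the Zfp rises numbered 13, 12 and 10, beside 3.61%, 3.69% and 1.82% of all genes, and without AACO replicate 3 there were 26, beside 5.44%. The median stayed between 0.15 and 0.22 when 1 array was left out.

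By rn4 position, 50 of the 183 Zfp genes (27.3%) lay on chromosome 1, which held 12.7% of other named genes, and 8 of these 50 rose. With gaps under 1 Mb between neighbours, 87 Zfp genes fell into 24 neighbourhoods, which held 15 of the 22 rises. The largest, from Zfp180 to Zfp574 on chr1:79325341-80394939, held 9 genes with values from −0.50 to 0.72, of which only Zfp235 rose. A neighbourhood of 8 genes, from Zfp786 to Zfp775 on chr4:75954278-76710754, held the rise of Zfp467 beside 7 genes between −0.14 and 0.36. Around Zfp579, on chr1:67525985-67589253, Zfp580, Zfp865 and Zfp524 did not pass. The largest rise was therefore next to genes that gave no call.

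Some neighbourhoods lay on 1 side. On chr7:13476363-13709811 Zfp799, Zfp709l2, Zfp472 and Zfp763 were all higher in AACO with a median of 0.75, although only Zfp472 passed and the control level of Zfp763 is only a bound. All 4 genes from Zfp853 to Tnrc18 (Zfp469 on the array) on chromosome 12 and all 4 Zfp26 and Zfp426 genes on chromosome 8 were also higher, with 1 rise each. No control array was well above background for Zfp26, and with normexp it gave −0.16. In 15 of the 24 neighbourhoods all members had the same sign, among them many pairs, and 5 neighbourhoods held 5 or more genes. Of all 183 Zfp genes 69.9% were above 0, so small sets on 1 side are to be expected. A link between neighbours was not tested. Whether the transcripts of close copies bind each other's probes was not tested, and the comparison that follows is among probes alone.

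**Figure D5:**
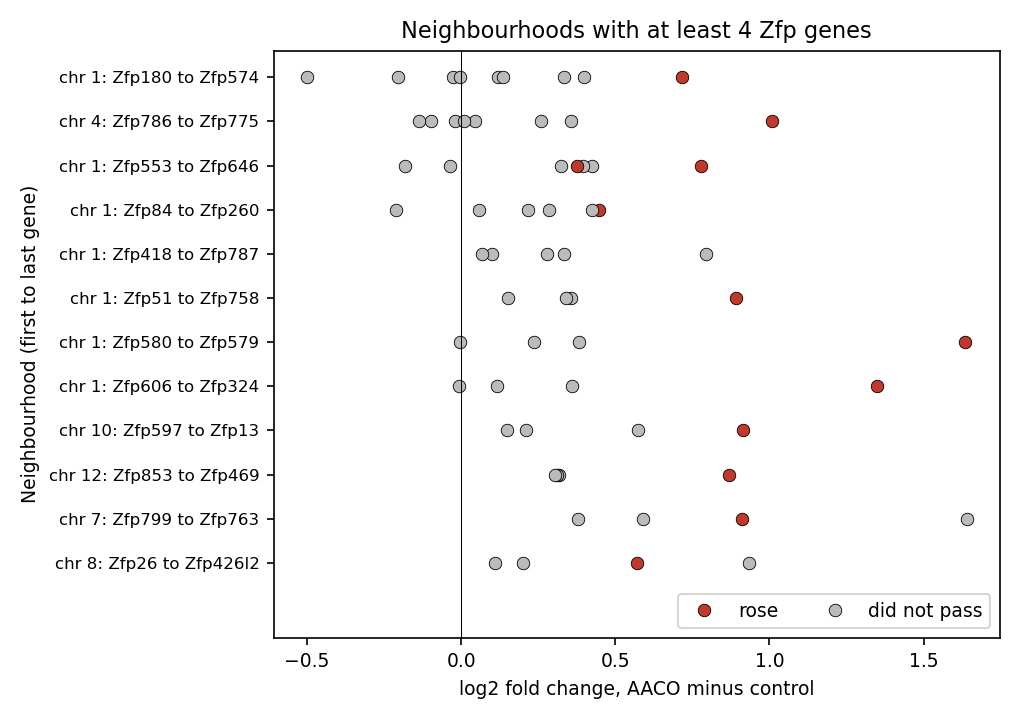
Log2 fold change, AACO minus control, of each Zfp gene (points) in the 12 neighbourhoods with at least 4 Zfp genes on rn4, named by chromosome and by first and last gene; red points passed the test as rises and grey points did not. Most lines hold 1 red point, with the other genes of the line between −0.50 and 0.93 except Zfp763, measured at 1.64 with no control array well above background.

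The probes of 5 Zfp genes matched the probe of another gene at 40 or more of 60 bases, and none reached 50. Besides Zfp853 these were Zfp141, Zfp111, Zfp287 and Zfp386, of which none passed. The Zfp141 probe printed above shares 20 bases in a row with the RGD1565622 probe, and the 2 measured differences were 1.16 and 1.17. The median GC content was 43.3% for Zfp probes and 45% for those of other named genes.

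Promoters from RefSeq (build GRCr8, 250 bases before to 50 after the start) matched 148 of the 183 Zfp genes by symbol, 18 of the 22 risen genes among them. Of 10 motifs searched on both strands, chosen with the results of the fit known, 1 was ACTACAATT, a part of longer sites bound by Zfp143 and its human form ZNF143. This motif was in 5 Zfp promoters (3.38%), in 0.516% of all 19005 promoters and in 0.645% of those of 9453 other named genes tested. It was singled out after these shares were seen. The windows of 60 bases with this motif are printed, since the motif is a feature that the choice of genes did not use. Capitals mark the motif or its reverse complement, on the strand of the gene, which is plus for all 5.

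Zfp235, chr1:88826850-88826909: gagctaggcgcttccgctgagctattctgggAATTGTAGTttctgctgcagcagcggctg
Zfp1, chr19:56509270-56509329: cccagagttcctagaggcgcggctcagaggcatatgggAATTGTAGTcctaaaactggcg
Zfp458, chr2:86401394-86401453: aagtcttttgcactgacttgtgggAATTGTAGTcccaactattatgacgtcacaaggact
Zfp692, chr10:42988875-42988934: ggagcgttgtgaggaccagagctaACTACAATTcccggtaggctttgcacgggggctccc
Zfp180, chr1:88780282-88780341: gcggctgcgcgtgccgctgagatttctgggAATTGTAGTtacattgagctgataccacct

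The motif began 22 to 96 bases before the start. Of these 5 genes Zfp235 rose (0.72, adjusted p = 0.0219), while Zfp1 (0.38), Zfp458 (0.27), Zfp692 (0.12) and Zfp180 (−0.03) did not pass, and Zfp143 itself gave 0.07 (adjusted p = 0.622). The motif was thus found in genes with and without a rise. The ETS motif CCGGAAG was in 24.3% of Zfp promoters, 11.2% of all and 15.9% of other tested ones, and in 3 of the 18 risen genes. The NRF1 motif GCATGCGC was in 6.76% of Zfp promoters, 3.23% of all and 4.54% of other tested ones, and the YY1 motif AAGATGGC in 6.76%, 3.92% and 5.004%.

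The GC box GGGCGG was in 45.9% of Zfp promoters, 43.1% of all and 59.6% of other tested ones, and TATAAA in 10.8%, 13.1% and 8.15%. For both, the Zfp share thus lay on opposite sides of the 2 backgrounds. Of the 18 risen genes 2 held the GC box and 3 held TATAAA, and no difference from the other Zfp genes was tested. The same shares were 7.43%, 7.27% and 9.13% for the E-box CACGTG, and 2.70%, 2.22% and 2.87% for the CRE TGACGTCA. They were 0.676%, 0.821% and 0.540% for the D-box TTATGTAA and 6.76%, 7.79% and 6.68% for the heat shock pair TTCNNGAA. The median GC content was 58.2% for the Zfp promoters and 53.0% for the 18 risen ones, against 60.3% for other named genes. A match of letters is a description of these windows, and binding was not measured.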

How the data were processed

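Scanner output of 6 Agilent arrays was used. Per the file headers, the deposited spot intensity is the processed signal of Feature Extraction 10.7.1.1, corrected for background but with no scaling across arrays. The deposited series matrix gives log2 values, made in a way not given in the sources used here. Its columns correlated with the scanner's log2 signal at r of at least 0.998 and shared a median of 6.77, and it served as an alternative.

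Control spots and outlier-marked spots were left out, spots of a probe were averaged on the log2 scale, and each array's 75th percentile over probes was subtracted. A probe counted as well above background on an array where at least 0.5 of its spots were, a limit set at 0.5 or more, in place of over 0.5, after the number of probes kept was seen (20116 of 30367) and before any fold change was. AACO and control arrays were fitted with limma 3.58.1 under R 4.3.3, by lmFit and eBayes, with two-sided p-values adjusted by Benjamini-Hochberg across the 17515 genes and a threshold of 0.05. The percentile over probes was kept, and that over spots added as an alternative, after the counts of the first fit were seen. The step was tested on simulated data.

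The Zfp genes and all gene lists were chosen with earlier results of these data known. Genes named were the 10 largest rises and the falls past the threshold, the listed genes of known role, the brightest, dimmest and most variable genes, the 2 of smallest p of each other list, and genes whose probes disagree. The other risen genes were named after their values were seen. There were 18 alternatives planned and 2 added after the data were seen, with a split of normexp values by bins of signal. Of the 10 promoter motifs, those named ZNF143, NRF1 and heat shock pair were shortened after a first search with longer forms. Classes by KRAB domain or number of fingers, planned as a description, were not made here, since no protein sequences were used. Array accessions were matched to current symbols through the RefSeq gene table.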

Additional observations from a re-analysis of the deposited data

How the results depend on the processing

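As processed here 22 Zfp genes rose and 3 fell with a median of 0.15, beside 368 and 711 other named genes. The counts changed by over 1.5 times with normexp (12 rose, 7 fell, median 0.017, 1347 other genes fell), no scaling (96 and 1, 0.70, 3081 and 160), spike-in scaling (0.32, 592 and 248), no filter (1797 other genes fell), and with the Myl7 and Sln covariate (0 and 0, 0.095, 0 and 0) or without AACO replicates 1 and 2 (0 and 0, 0.095, 0 and 0), where no gene passed. The median also moved, by more than the spread between arrays, to 0.18 with quantile normalization and with the series matrix, 0.17 with scaling to the median of detected probes, 0.20 with updated symbols and 0.21 with the percentile over spots. Leaving out 1 array gave 3 to 26 rises, 1 to 4 falls and a median of 0.15 to 0.22, with 38 to 480 other genes rising and 107 to 874 falling. Of the 25 genes called here, 15 were called with normexp, 6 without AACO replicate 1, 5 without AACO replicate 2, 23 without AACO replicate 3, and 14, 15 and 11 without control replicates 1, 2 and 3. Among the named genes, none of those that passed changed sign in any alternative run.

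Genes that did not pass changed sign as follows, and the cause was not tested. With normexp these were Zfp36 (−0.16), Zfp90 (−0.14), Zfp143 (−0.0084), Zfp91 (0.017), Zfp335 (−0.028), Zfp161 (−0.25), Zfp238 (−0.29), Zfp26 (−0.16), Zfp329 (−0.45), Zfp93 (−0.38) and Zfp569 (−0.42). With no scaling they were Zfp36l1 (0.053), Zfp260 (0.33), Zfp423 (0.43), Zfp521 (0.46), Zfp598 (0.29), Zfp91 (0.52), Zfp638 (0.16), Zfp281 (0.45), Zfp207 (0.28), Zfp384 (0.52), Zfp553 (0.37) and Zfp364 (0.33). Spike-in scaling turned Zfp423 (0.051), Zfp521 (0.086), Zfp91 (0.15), Zfp281 (0.071) and Zfp384 (0.14). Quantile normalization turned Zfp384 (0.018) and the series matrix Zfp384 (0.019). The mean over probes turned Zfp521 (0.47) and Zfp553 (0.0043) and the percentile over spots Zfp91 (0.038) and Zfp384 (0.037). The covariate turned Zfp36 (−0.49), Zfp445 (−0.10), Zfp90 (−0.10), Zfp143 (−0.017), Zfp91 (0.0901), Zfp335 (−0.0055), Zfp384 (0.36) and Zfp553 (0.023). Leaving out AACO replicates 1 and 2 turned Zfp36 (−0.22), Zfp445 (−0.0053), Zfp90 (−0.074), Zfp143 (−0.017), Zfp91 (0.036), Zfp335 (−0.0037), Zfp384 (0.28), Zfp553 (0.019) and Zfp364 (0.059). With 1 array left out, values crossed 0 for Zfp36 (−0.31 to 0.29), Zfp445 (−0.048 to 0.30), Zfp91 (−0.082 to 0.046), Zfp335 (−0.015 to 0.044), Zfp384 (−0.23 to 0.14), Zfp93 (−0.28 to 1.11) and Zfp569 (−0.38 to 0.61).

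No paired analysis was possible because the labels give no replicate number shared by the groups. Precision is limited by 3 arrays per group, and dim probes by their signal over background.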

Other observations

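Among the 3 brightest Zfp genes, Zfp553, which has no current symbol here, was at 3.69, 3.69 and 3.99 in AACO and 3.95, 3.92 and 4.05 in control (−0.18 ± 0.12, adjusted p = 0.346), and Rnf115 (Zfp364) differed by −0.22 ± 0.19 (adjusted p = 0.472). The 3 dimmest were Zfp763 (adjusted p = 0.0507), Zfp26 (adjusted p = 0.0985) and Zfp329 (0.12 ± 0.18, adjusted p = 0.684). With the control level as a bound, Zfp763 and Zfp26 were at least 2.15 and 1.55-fold higher in AACO as processed here. Over the alternatives the Zfp763 log2 fold change ranged from 0.15 to 2.19, and with normexp Zfp26 gave −0.16. No control array was well above background for Zfp763 and Zfp26.

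The spread within a group was largest for Zfp93, Zfp569 and Zfp536. Zfp93 was at −4.07, −4.95 and −4.51 in AACO and −3.98, −6.75 and −4.49 in control, so control replicate 2 stands alone. Zfp536, known from neuronal differentiation, was at 0.93, 0.84 and −0.35 in AACO and −0.42, 0.16 and −0.82 in control (0.83 ± 0.40, adjusted p = 0.216). Its 2 high AACO arrays are replicates 1 and 2, those with high Myl7 and Sln.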
